A study of Sus scrofa with 220 samples.

Results

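XPNPEP2, ETNPPL, SLC28A3, GPD1L and BAD are 5 genes that were selected on their counts, for being present in pig morulae and in the inner cell mass and lower or lost in the later epiblast. They were found by symbol among the 22840 gene entries of the count and TPM tables, and all 5 were matched to 1 Ensembl entry each. The choice rests on the levels in morula, inner cell mass and epiblast, so the differences between these groups are described here and were not tested. The levels in trophectoderm and hypoblast did not enter the choice, and the genes were tested there.

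Each gene has a separate biochemical role. XPNPEP2 is a membrane-bound aminopeptidase that removes the first residue of peptides with proline in the next position. ETNPPL breaks down phosphoethanolamine, a precursor of membrane phospholipids, and GPD1L belongs to the glycerol phosphate dehydrogenases, which link glycolysis to glycerolipid synthesis. SLC28A3 is a sodium-coupled transporter that carries purine and pyrimidine nucleosides into the cell. BAD is a pro-apoptotic member of the BCL2 family that survival kinases hold inactive by phosphorylation.

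The cells were taken from in vivo embryos of artificially inseminated pigs, with no treatment, and were sequenced singly with the Smart-seq2 protocol. There were 47 morula cells (M), of which 46 were assigned to 8 embryos, and early blastocysts (EB) gave 24 inner cell mass (ICM) cells from 7 embryos and 28 trophectoderm (TE) cells from 10. Late blastocysts (LB), whose trophectoderm the study removed before dissociation, gave 25 epiblast (EPI) cells (4 embryos) and 36 hypoblast (HYPO) cells (5 embryos). From spherical embryos (Sph) came 48 EPI cells (4 embryos) and 12 HYPO cells (3 embryos). No trophectoderm of LB or Sph embryos was collected. Stage and cell type therefore cannot be told apart between TE and HYPO, and the ICM and TE groups have 7 embryos in common. The study inferred sex from the expression of Y chromosome genes. By its summary all Sph HYPO cells were male, while most TE and LB HYPO cells were female. Sex was not modelled here, and its part in the differences between groups was not tested.

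Counts per cell ranged from 1012604 to 5696373, with a median of 2006854. Cells were assigned to embryos by the letters in the cell identifiers, which limits every comparison between embryos. For each embryo and cell type the counts of its cells were added up, and levels of these sums are given as CPM, counts scaled to library size, with TMM normalization. Levels of different genes are compared only in TPM, which also takes account of gene length. Marker genes used to check the labels are given as CPM without TMM. The 4 matched pluripotency genes summed to 85.1 to 452 CPM in the EPI embryos and to 0 to 63.9 CPM in the HYPO embryos. They did not mark M, at 0 to 32.8 CPM, and POU5F1, NANOG and SOX2 were not matched. The 6 matched hypoblast genes summed to 198.1 CPM or more in the HYPO embryos and to 67.3 CPM or less in the EPI embryos. They reached 320.2 to 885.7 CPM in M, 104.4 to 505.7 CPM in ICM and 75.2 to 583.7 CPM in TE. The hypoblast genes therefore did not separate HYPO from the early groups. The trophectoderm markers summed to 20670 CPM or more in 9 TE embryos. The TE cell E6-ER2, the sole cell of its embryo, stood apart with 315 CPM. It had no count for GATA2, GATA3, DAB2 or KRT8 and a single count for KRT18, while KLF4 reached 883 CPM. The tests in TE are given with and without this cell, whereas the levels and shares of TE include it.

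XPNPEP2 (ENSSSCG00000012651) was detected in nearly all cells up to the early blastocyst and in few or none thereafter. TPM exceeded 1 in 40 of 47 M cells (85.1%, exact Clopper-Pearson 95% interval 71.7 to 93.8), in all 24 ICM cells (85.8 to 100) and in 26 of 28 TE cells (92.9%, 76.5 to 99.1). No LB EPI cell of 25 passed this level, where a limit of 3 cells stands for a share of up to 12% (exact upper bound 13.7%), and none of 48 Sph EPI cells, where it stands for 6.25% (7.40%). These intervals and limits cover counting error only.

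Median TPM of XPNPEP2 was 53.9 in M, 118 in ICM and 48.6 in TE. The lowest, median and highest embryo reached 50.1, 220 and 304 CPM in M, 173, 255 and 503.1 CPM in ICM, and 22.4, 145 and 534 CPM in TE. The ranges of these 3 groups overlapped. Of the 7 M cells at or below TPM 1, 4 came from embryo T, where XPNPEP2 was also lowest among the M embryos.

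The 4 LB EPI embryos held 2 counts of XPNPEP2 in all, and Sph EPI and Sph HYPO held none. Against LB EPI, the pooled ratio was 4111 for M (95% counting interval 1138 to 33950) and 7555 for ICM (2091 to 62390). Against the 3 counts that define the limit for a group without counts, M was at least 6154-fold higher than Sph EPI, and ICM at least 11310-fold higher. LB HYPO was the exception among the late cells. It held 273 counts, which came almost wholly from 1 cell of embryo AM (3.2 CPM) and 2 cells of embryo AO (7.8 CPM), while embryos AL, AN and AP had none.

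**Figure D1:**
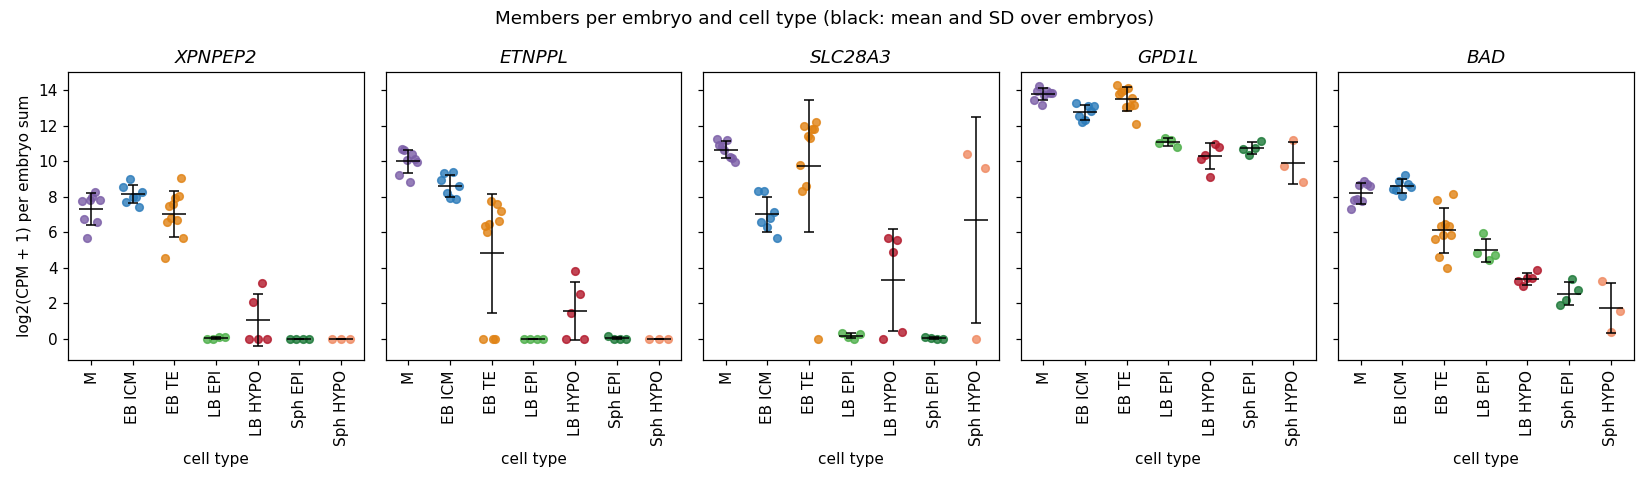
Level of each gene per embryo, as log2(CPM + 1) on the vertical axis, over the 7 cell types. Points are embryo sums and black marks give the mean and SD over embryos. XPNPEP2 and ETNPPL lay at or near 0 in EPI, whereas GPD1L stayed above 8 in every embryo of every cell type.

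ETNPPL (ENSSSCG00000009144) had its highest level in M and was lower in ICM and again in TE. It was above TPM 1 in all 47 M cells and all 24 ICM cells, and in 20 of 28 TE cells (71.4%, 51.3 to 86.8). Median TPM was 1012 in M, 375 in ICM and 66.2 in TE. By mean TPM it ranked 154 of the 13738 entries with a count in M, 440 of 12379 in ICM and 1865 of 11996 in TE.

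The M embryos ran from 465 to 1672 CPM of ETNPPL with a median of 1103 CPM, and the ICM embryos from 230 to 683 CPM with a median of 390 CPM. The ranges overlapped. In TE, 3 embryos (AA, AF and AG, 4 cells in all) had no count, and the highest embryo reached 214 CPM, below the lowest ICM embryo.

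In late cells ETNPPL was close to or at 0. LB EPI and Sph HYPO had no count in any cell, and Sph EPI had 3 counts, all from embryo C. M was at least 21210-fold higher than LB EPI and ICM at least 8553-fold higher. In LB HYPO, 3 of 36 cells were above TPM 1 (8.33%, 1.75 to 22.5), 1 each in embryos AM, AN and AO, which were at 1.8, 13.0 and 4.8 CPM. Embryos AL and AP had none.

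GPD1L (ENSSSCG00000021977) was among the most abundant transcripts of the early embryo. By mean TPM it ranked 5 of 13738 entries in M, 20 of 12379 in ICM and 7 of 11996 in TE. It was lowered in EPI and not silenced: its TPM was above 1 in all 220 cells. Median TPM was 6117 in M, 3320 in ICM and 5868 in TE, against 884 in LB EPI, 632 in Sph EPI, 501 in LB HYPO and 170 in Sph HYPO. Even in LB EPI it ranked 184 of 13425 entries.

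The SD of GPD1L between embryos was lower in M, ICM and EPI than in HYPO and in TE, where it includes the cell E6-ER2. This cell was at 12.09 on the log2(CPM + 1) scale, and the other TE embryos were at 13.04 to 14.31. Some ICM, TE and LB HYPO sums hold only 1 cell, and the difference in SD was not tested. On the log2(CPM + 1) scale the level was 13.78 ± 0.34 (SD, n = 8) in M, 12.78 ± 0.43 (SD, n = 7) in ICM and 13.51 ± 0.66 (SD, n = 10) in TE, and the SD was 0.21 in LB EPI (n = 4), 0.32 in Sph EPI (n = 4), 0.73 in LB HYPO (n = 5) and 1.20 in Sph HYPO (n = 3). The LB EPI embryos AN, AO, AP and AQ were at 2093, 2536, 2352 and 1815 CPM, and the Sph EPI embryos C, D, E and F at 1638, 1332, 1726 and 2295 CPM. The EPI ranges overlapped each other, and both lay below the lowest ICM embryo, at 4792 CPM. The ratio of mean CPM of M to LB EPI was 6.56 and that of ICM to LB EPI was 3.31.

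SLC28A3 (ENSSSCG00000010960) was high in M and TE and lower in ICM. Median TPM was 977 in M, 90.6 in ICM and 548 in TE. The M embryos ran from 994 to 2428 CPM with a median of 1737 CPM and the ICM embryos from 49.8 to 318 CPM with a median of 113 CPM, so that M and ICM did not overlap. The ratio of mean CPM was 10.7.

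In TE, 7 embryos lay between 892 and 4670 CPM for SLC28A3, embryos AB and AD were at 325 and 387 CPM, and the cell E6-ER2 had no count. TE cells above TPM 1 were 25 of 28 (89.3%, 71.8 to 97.7), and ICM cells 19 of 24 (79.2%, 57.8 to 92.9). The TE median over all embryos was 2643 CPM, above that of M, although the ranges of M and TE overlapped.

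SLC28A3 was near 0 in EPI, with 6 counts in LB EPI and 3 in Sph EPI and no cell above TPM 1 in either. It was detected in HYPO. In LB HYPO, 10 of 36 cells were above TPM 1 (27.8%, 14.2 to 45.2), and embryos AL, AM, AN, AO and AP were at 0, 50.6, 28.2, 46.4 and 0.3 CPM. In Sph HYPO, 9 of 12 cells were above TPM 1 (75%, 42.8 to 94.5), with a median TPM of 451. Embryos C and F reached 1342 and 797 CPM, and embryo E had no count in either of its 2 cells.

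The summed trophectoderm markers, mostly KRT8, were also higher in Sph HYPO than in LB HYPO. Summed over all 7 marker genes, Sph HYPO embryos held 18090 to 42230 CPM against 1505 to 2443 CPM in LB HYPO, 2738 to 9464 CPM in Sph EPI and 235 to 616 CPM in ICM. CDX2 had no count and GATA2 had 1 count in all Sph HYPO cells together. TFAP2A was at 0.26, 12.3 and 1.1 CPM in Sph HYPO, against up to 98.1 CPM in LB HYPO, while GATA3 reached 22.1 to 65.3 CPM and DAB2 147 to 372 CPM. Embryo E, which lacked SLC28A3, held 18090 CPM of these markers, had no count for the hypoblast gene GATA4, and had 77.0 CPM of PDGFRA. The part of other cells or of keratin expression in the level of SLC28A3 was not tested.

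BAD (ENSSSCG00000013033) was highest in ICM and lower in each later group. Median TPM was 482 in M, 692 in ICM and 140 in TE. It was 52.4 in LB EPI against 4.03 in Sph EPI, and 9.02 in LB HYPO against 3.05 in Sph HYPO. It was above TPM 1 in every M, ICM and TE cell, in 22 of 25 LB EPI cells (88%, 68.8 to 97.5), in 27 of 36 LB HYPO cells (75%, 57.8 to 87.9), in 25 of 48 Sph EPI cells (52.1%, 37.2 to 66.7) and in 8 of 12 Sph HYPO cells (66.7%, 34.9 to 90.1). Thus BAD was not silenced in EPI either. In the RefSeq annotation of Sscrofa11.1, a later build than that of the files, it overlaps the entry LOC106509317, so that its counts are uncertain by the reads of that entry.

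The M embryos ran from 155 to 478 CPM of BAD with a median of 310 CPM, and the ICM embryos from 266 to 601 CPM with a median of 376 CPM. LB EPI embryos AN, AO, AP and AQ were at 27.8, 60.2, 20.8 and 25.3 CPM. Sph EPI embryos C, D, E and F were at 2.7, 3.5, 9.3 and 5.6 CPM, all below every LB EPI embryo. The ratio of mean CPM was 6.34. For the other genes of the 5 the LB and Sph EPI embryos overlapped. The share of all genes that separate these embryos was not computed, and EPI levels were used in the choice, so this is a description only.

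**Figure D2:**
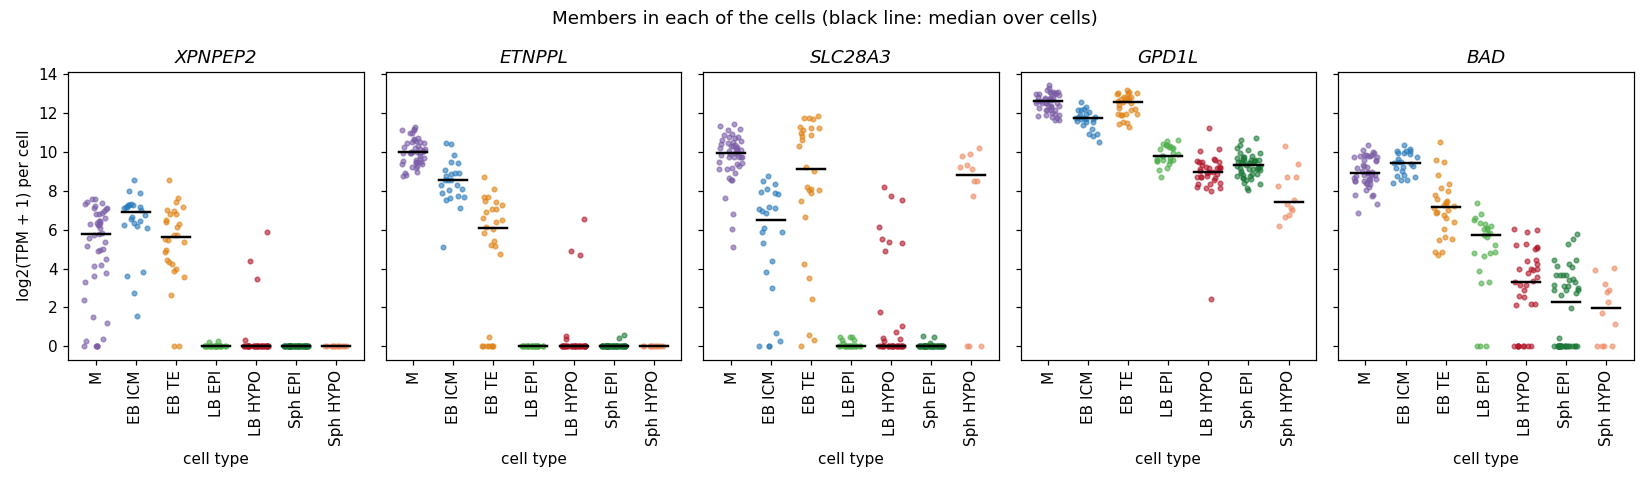
Level of each gene in each of the 220 cells, as log2(TPM + 1) on the vertical axis, over the 7 cell types, with a black line at the median. Single LB HYPO cells carried XPNPEP2, ETNPPL or SLC28A3 while most had none, and SLC28A3 was high in 9 of 12 Sph HYPO cells.

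The order of mean log2 levels over embryos differed between the genes. ICM led for XPNPEP2 and BAD, and M for ETNPPL, SLC28A3 and GPD1L. Neighbours in that order mostly overlapped between embryos. The steps without overlap were TE to LB HYPO for XPNPEP2, ICM to TE for ETNPPL, ICM to LB EPI for GPD1L and LB EPI to LB HYPO for BAD, and none for SLC28A3. TE and ICM overlapped for SLC28A3 only through the cell E6-ER2, since the other TE embryos were at 325 CPM or more and the highest ICM embryo at 318 CPM.

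Within early blastocysts that gave both cell types, the genes went in opposite ways. ETNPPL was higher in ICM than in TE of the same embryo in 7 of 7 embryos, by a median of 3.29 on the log2(CPM + 1) scale, and BAD in 7 of 7 by a median of 2.78. SLC28A3 was higher in TE in 7 of 7 embryos, with a median ICM minus TE difference of -4.67, and GPD1L in 7 of 7, with -0.98. XPNPEP2 was higher in ICM in 6 of 7, by a median of 0.42. The cell E6-ER2 had no ICM partner and is not among these pairs. The ICM levels were used in the choice of the genes, so no test was made.

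**Figure D3:**
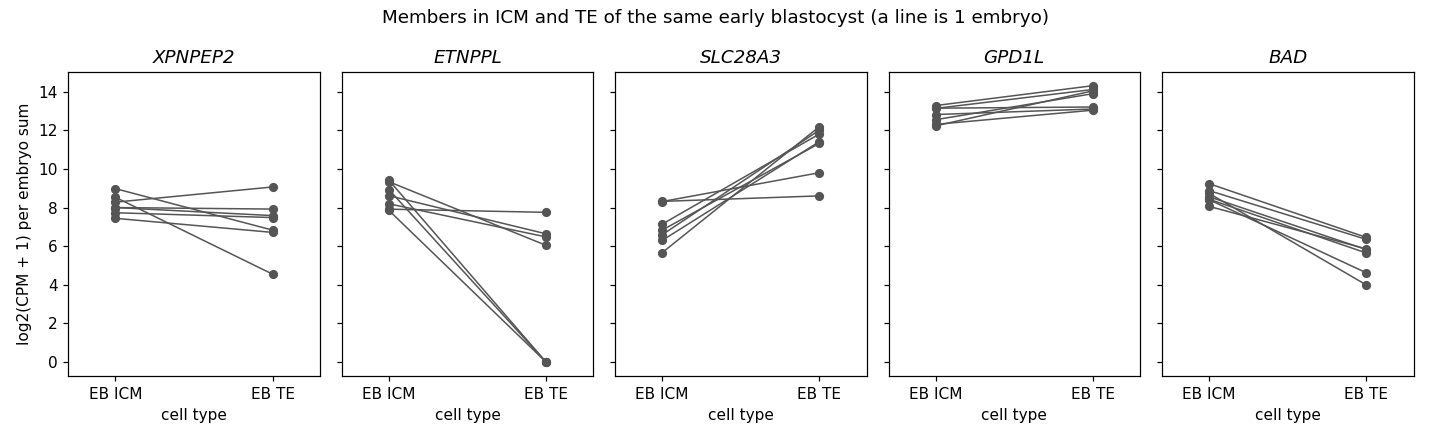
Levels in ICM and TE cells of the same early blastocyst, as log2(CPM + 1) on the vertical axis, with 1 line for each of 7 embryos. ETNPPL and BAD were lower in TE in every embryo, and SLC28A3 and GPD1L were higher.

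Within late embryos the pairs were fewer. BAD was higher in EPI than in HYPO of the same LB embryo in 3 of 3, by a median of 1.45 on the log2(CPM + 1) scale, and GPD1L in 3 of 3 by 0.39. In the Sph embryos BAD and GPD1L were each higher in EPI in 2 of 3. The embryo that was higher in HYPO differed between them. It was embryo C for BAD, where EPI minus HYPO was -1.35, and embryo E for GPD1L, where it was -0.44. SLC28A3 was higher in HYPO in 3 of 3 LB embryos and in 2 of 3 Sph embryos, and the other Sph embryo had none in either cell type.

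TE and HYPO were compared with tests, since their levels were not used in the choice. These comparisons still set early against late cells, as the choice did, and TE and HYPO come in part from the same embryos as the ICM and EPI cells (7 EB, 3 LB and 3 Sph embryos), so that they are not fully independent of it. XPNPEP2, SLC28A3, GPD1L and BAD were higher in TE than in LB HYPO, so that 4 of the 5 genes were called at an adjusted p under 0.05. Among the 13343 genes tested, 0.824% were called higher in TE and 2.95% higher in LB HYPO, 3.78% in all. With DESeq2 the split was 387 genes higher in TE and 471 higher in LB HYPO, against 110 and 394 with edgeR. On simulated data DESeq2 made 117 false calls in this comparison, and edgeR 2. The edgeR p-values measure the spread between 10 TE and 5 LB HYPO embryo sums.

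For GPD1L the log2 fold change was 3.20 (standard error 0.34, edgeR adjusted p = 3.59e-06). XPNPEP2 differed by 6.26 (standard error 1.34, edgeR adjusted p = 0.0116), with the lowest TE embryo at 22.4 CPM and the highest LB HYPO embryo at 7.8 CPM. For both genes every TE embryo lay above every LB HYPO embryo, and a two-sided exact permutation test of the mean levels gave p = 0.000666, the smallest this design can give. SLC28A3 differed by 6.49 (standard error 1.55, edgeR adjusted p = 0.0247), with exact permutation p = 0.00999, and the groups overlapped through the cell E6-ER2. Without this cell edgeR gave 3.38 for GPD1L (adjusted p = 2.52e-07), 6.50 for XPNPEP2 (adjusted p = 0.00517) and 6.76 for SLC28A3 (adjusted p = 0.00166). For SLC28A3 the edgeR adjusted p was 0.0517 without LB HYPO embryo AN and 0.0534 without AO.

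BAD was 3.28 higher in TE on the log2 scale (standard error 0.91, edgeR adjusted p = 0.0485). Every TE embryo lay above every LB HYPO embryo, with exact permutation p = 0.000666, which is not adjusted over genes. The edgeR call was lost without the cell E6-ER2, at 2.98 and an adjusted p of 0.0514 from edgeR. The call was also lost with each of 13 other embryos left out in turn, and 6 of 25 alternatives called BAD. ETNPPL was not called, at 4.46 (standard error 1.82, edgeR adjusted p = 0.136, exact permutation p = 0.0673), nor without the cell E6-ER2, at 4.44 (edgeR adjusted p = 0.137). The sample titles carry 8 different numbers, which were taken here as library pools, though the labels do not name them so. Within the first 4 of these pools the log2 fold changes were 6.90, 4.14, 7.21, 3.19 and 2.94 for XPNPEP2, ETNPPL, SLC28A3, GPD1L and BAD, and XPNPEP2, SLC28A3 and GPD1L were called. The last 4 pools gave 5.002, 5.05, 5.28, 3.26 and 4.27, with edgeR adjusted p from 0.119 to 0.214.

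Against Sph HYPO, 2 genes were called higher in TE, beside 0.475% of the 12855 genes tested (1.91% were higher in Sph HYPO, and 2.39% were called in either direction). DESeq2 turned this split, with 399 genes higher in TE and 269 higher in Sph HYPO, against 61 and 246 with edgeR. On simulated data DESeq2 made 213 false calls in this comparison, and edgeR 5. For GPD1L the log2 fold change was 3.36 (standard error 0.49, edgeR adjusted p = 0.000497), with Sph HYPO embryos C, E and F at 851, 2335 and 449 CPM. XPNPEP2 had no count in Sph HYPO and was at least 1415-fold higher in TE (edgeR adjusted p = 0.000532). All 23 alternatives called both, among them both sets of 4 pools. ETNPPL had no count in Sph HYPO either, and was at least 829.1-fold higher in TE, but 3 TE embryos were also at 0 (edgeR adjusted p = 0.0618). BAD differed by 4.70 (edgeR adjusted p = 0.0885), and Sph HYPO embryos C, E and F were at 8.4, 0.3 and 2.0 CPM. SLC28A3 differed by 1.64 (standard error 1.502, edgeR adjusted p = 0.653). ETNPPL and BAD were called by 6 and 3 of the 23 alternatives. Without the cell E6-ER2 the edgeR adjusted p was 7.63e-05 for GPD1L, 0.000203 for XPNPEP2, 0.0696 for ETNPPL, 0.107 for BAD and 0.399 for SLC28A3. The 2 comparisons with TE share its samples.

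Between LB HYPO and Sph HYPO none of the 5 genes was called by edgeR, nor by DESeq2 or limma, beside 0.183% of the 13115 genes tested that edgeR called (0.0534% higher in LB HYPO and 0.13% higher in Sph HYPO). DESeq2 turned this split too, with 189 and 152 genes against 7 and 17 with edgeR. On simulated data DESeq2 made 170 false calls in this comparison, and edgeR 13. Of the genes changed 8-fold in that simulation, edgeR recovered 25.5%, DESeq2 18.5% and limma 0.5%. The lack of calls therefore cannot show that the genes were unchanged. An unadjusted p under 0.05 was found by edgeR for 2 of the 5 and for 1402 of all genes tested. SLC28A3 had the largest difference with counts on both sides, at -4.96 for LB minus Sph (standard error 1.63, edgeR adjusted p = 0.385, unadjusted p = 0.00847). Without Sph HYPO embryo E the difference was -5.42 (edgeR adjusted p = 0.133). GPD1L differed by 0.10 (standard error 0.47, edgeR adjusted p = 0.963) and BAD by 1.35 (standard error 1.95, edgeR adjusted p = 0.827).

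**Figure D4:**
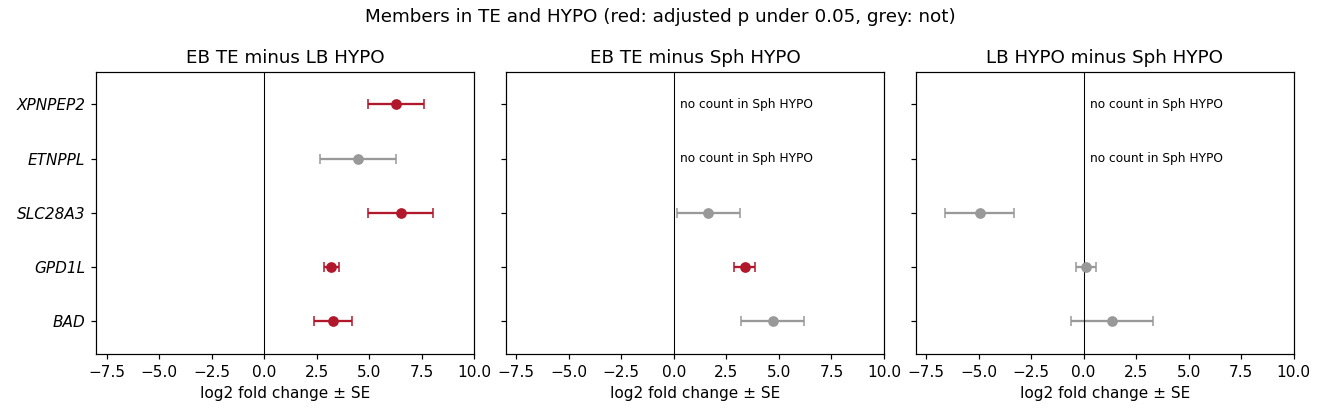
Log2 fold change with standard error of each gene in the 3 comparisons of TE and HYPO, from edgeR on embryo sums. Red points were called and grey points were not, and genes with no count in Sph HYPO have no point. GPD1L was called against both HYPO groups.

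In LB HYPO, XPNPEP2 and ETNPPL were each above TPM 1 in 3 cells and SLC28A3 in 10. Genes found in so few cells share few cells by rarity alone, and a departure from this was not tested. XPNPEP2, ETNPPL or SLC28A3 was above TPM 1 in 14 of 36 LB HYPO cells, and 2 cells had more than 1 of the 3. The 14 cells had a median of 1572472 counts and the other cells one of 1955252. Among the Sph HYPO cells, 9 of 12 had SLC28A3 and none had XPNPEP2 or ETNPPL.

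The pathways around the 5 genes were followed in lists, in the comparison of the mean of M and ICM with the mean of LB and Sph EPI. Of the 14658 genes tested there, 7.45% were called higher in M and ICM and 14.4% higher in EPI. Fitted folds are set by the prior count where a group has hardly any counts, so medians are given over genes with more than 3 counts in each of the 4 groups. Over the 9757 such genes of the whole table the median log2 fold change was -0.040. No list had more than 3 genes called in 1 direction. The genes listed by symbol but not matched or not tested were not analysed here.

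Around XPNPEP2, 11 peptidases were tested and 1 was called in each direction, and the median log2 fold change over 7 of them was -0.73. PREP, a cytosolic prolyl endopeptidase, was higher in M and ICM by 2.29 (standard error 0.57, edgeR adjusted p = 0.00603). PRCP, a lysosomal prolylcarboxypeptidase, was higher in EPI, with -4.63 (standard error 0.98, edgeR adjusted p = 0.00163). XPNPEP1, the cytosolic aminopeptidase P, was not called, and its median TPM was 36.01 in M, 118 in ICM, 125 in LB EPI and 84.2 in Sph EPI.

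Around ETNPPL, 10 genes of ethanolamine and phospholipid metabolism were tested and 1 was called in each direction, with a median of 0.14 over 8. ALDH7A1, an aldehyde dehydrogenase, was higher in EPI, with -2.69 (standard error 0.29, edgeR adjusted p = 2.62e-07). CEPT1, which makes phosphatidylethanolamine and phosphatidylcholine, was higher in M and ICM by 1.26 (standard error 0.41, edgeR adjusted p = 0.0298), in 19 of 34 alternatives. PHYKPL, the closest relative of ETNPPL, was not called, at 0.11 (edgeR adjusted p = 0.936).

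Around SLC28A3, 11 genes of nucleoside transport and salvage were tested and 2 were called in each direction, with a median of -0.21 over 10. PNP, the purine nucleoside phosphorylase, was higher in M and ICM by 1.88 (standard error 0.21, edgeR adjusted p = 5.57e-07). ADK, which phosphorylates adenosine, was higher in EPI with -2.80 (edgeR adjusted p = 0.027), and ADA, which deaminates it, with -4.71 (edgeR adjusted p = 0.0274). ADA held 8 counts in M and 35 in ICM against 158 in LB EPI and 406 in Sph EPI, and its median TPM was 0 in every cell type. The transporter SLC29A4 was called in M and ICM on 16 counts in all, 12 in M and 4 in ICM, and had none in EPI. SLC28A2, of the same family as SLC28A3, was not called and had a median TPM of 34.97 in ICM and 0 in the other 6 cell types. It was not confined to ICM. The mean log2(CPM + 1) of SLC28A2 over embryos was 6.225 in LB HYPO (5455 counts) and 6.064 in ICM (6358 counts). In the remaining groups it ran from 1.575 to 2.957. SLC29A1, an equilibrative nucleoside transporter, was not called either (edgeR adjusted p = 0.573), with a median TPM of 39.5 in M, 298 in ICM, 229 in LB EPI and 669 in LB HYPO.

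Around GPD1L, 11 genes of glycerol phosphate metabolism were tested, of which 3 were called higher in M and ICM and 1 higher in EPI, with a median of -0.027 over 9. GPD2, the mitochondrial dehydrogenase of the glycerol phosphate shuttle, was higher in M and ICM by 1.47 (standard error 0.35, edgeR adjusted p = 0.00378). GPAM, a mitochondrial acyltransferase, was higher by 2.61 (edgeR adjusted p = 0.0447), a call that 13 of 34 alternatives made. AQP9, a channel for water and glycerol, was called with 2370 counts in M, 85 in ICM and none in EPI. The median TPM of AQP9 was 0 in every cell type. AGPAT1, an acyltransferase of the next step, was higher in EPI with -3.48 (edgeR adjusted p = 0.0322). The median TPM of AGPAT1 was 0 in M, ICM and LB EPI and 1.75 in Sph EPI. GPD1, the cytosolic enzyme related to GPD1L, had a median TPM of 0 in all 7 cell types and was not called (edgeR adjusted p = 0.359).

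Around BAD, 10 genes of the BCL2 family and the apoptosome were tested, of which 2 were called higher in M and ICM and 1 higher in EPI, with a median of -0.18 over 9. BAK1, which forms pores in the mitochondrial outer membrane, was higher in M and ICM by 2.60 (standard error 0.76, edgeR adjusted p = 0.0159), and CYCS, cytochrome c, by 0.73 (edgeR adjusted p = 0.00109). CASP9, the initiator caspase, was higher in EPI, with 136 counts in ICM and none in M against 510 in LB EPI and 2590 in Sph EPI (edgeR adjusted p = 0.00234). The median TPM of CASP9 was 0 in every cell type. Among 15 kinases, phosphatases and binding partners of BAD, 1 was called higher in M and ICM and 3 higher in EPI, and the median was -0.13. YWHAB and YWHAQ, adaptors that bind phosphorylated proteins, were higher in EPI with -1.11 and -1.13 (edgeR adjusted p = 7.22e-08 and 2.93e-06), as was the kinase PIM1 with -1.34 (edgeR adjusted p = 0.0207). The kinase RPS6KB1 was higher in M and ICM by 0.76 (edgeR adjusted p = 0.0466), a call that 10 of 34 alternatives made.

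**Figure D5:**
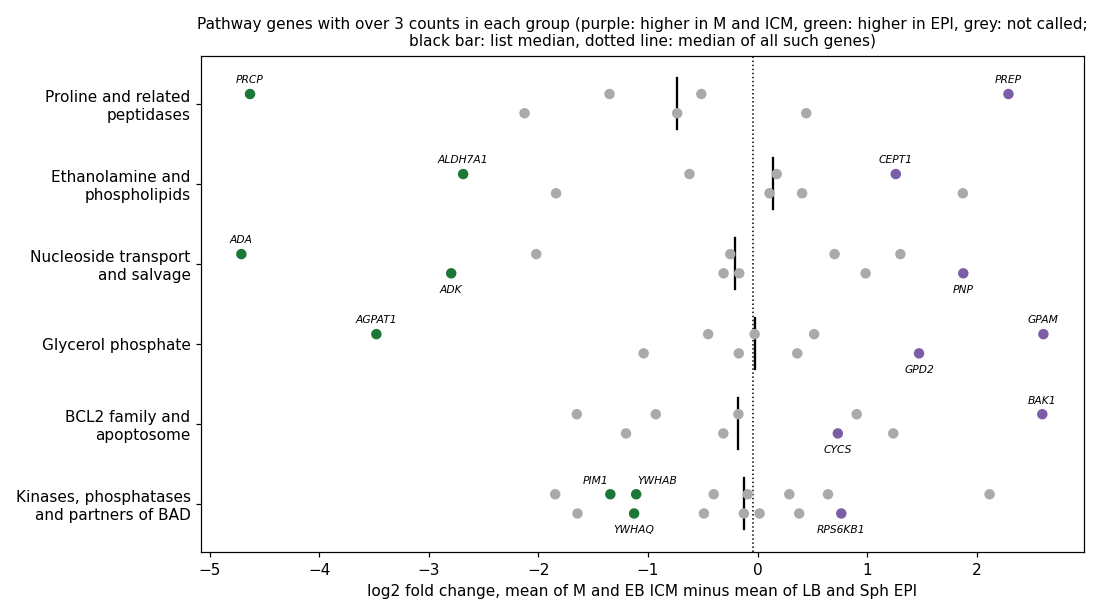
Log2 fold change of the pathway genes with more than 3 counts in each group, mean of M and ICM minus mean of LB and Sph EPI, with 1 row for each list. Black bars are list medians and the dotted line is the median of all such genes, at -0.040. Genes called higher in M and ICM are purple and those called higher in EPI green, and CASP9, AQP9 and SLC29A4 are not drawn.

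The genes most like each of the 5 over the 41 embryo sums were ranked by Pearson r of log2(CPM + 1) among 9370 genes with a symbol. The points share embryos and cell types, and the values are a description. ACSL6, a fatty acid activating enzyme, was closest to both XPNPEP2 (r = 0.944) and GPD1L (r = 0.916), and TMEM86A came next for both (r = 0.940 and 0.868). Median TPM of TMEM86A was 773 in M, 874 in ICM and 330 in TE, and 0 in the 4 late groups. LIPH, a phospholipase, ranked next for XPNPEP2 (r = 0.912), and the nuclear receptor ESRRG for GPD1L (r = 0.854).

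ETNPPL and BAD were close to each other (r = 0.853), and the sialyltransferase ST6GALNAC1 and XPNPEP2 ranked next for ETNPPL (both r = 0.831). Likeness among the 5 genes is in part built in, since all were chosen for lower levels in EPI than in M and ICM, and these sums are among the points. The transcription factor SPIC was closest to BAD (r = 0.859), with a median TPM of 357 in M, 940 in ICM and 0 in TE, and BRDT, a bromodomain protein known from the testis, ranked after ETNPPL (r = 0.835). Among the 5, XPNPEP2 was the closest to SLC28A3 (r = 0.755), at rank 17. Its closest genes were the proton pump subunit ATP6V0A4 (r = 0.833), the tight junction protein CLDN8 (r = 0.817) and the peptide transporter SLC15A1 (r = 0.814). All 3 had a median TPM of 0 in Sph HYPO, where that of SLC28A3 was 451.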

How the data were processed

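The authors aligned Smart-seq2 reads of single cells to the pig genome with HISAT2 2.1.0, counted them on Ensembl genes with HTSeq, and deposited raw counts per gene and the TPM values derived from them. The members, the gene lists and the tests were chosen with earlier results of these data known. Symbols came from a table of Ensembl names. Counts were summed per embryo and cell type (41 sums), and 14721 genes exceeded TPM 1 in 3 or more cells. Of these, the genes with a count in the sums compared (12855 to 14658) were tested, after TMM normalization, with glmQLFTest in edgeR 4.0.16 (R 4.3.3), and genes were called below 0.05 after Benjamini-Hochberg adjustment. The study compared cells with another method. The standard error is the log2 fold change divided by the square root of F. A single morula cell without an embryo entered cell shares and TPM only. On simulated data with 200 genes changed 8-fold, edgeR recovered 18% in TE against LB HYPO, with 2 false calls. It recovered 13% in TE against Sph HYPO with 5 false calls, and 25.5% in LB HYPO against Sph HYPO with 13. In M and ICM against EPI it recovered 40%, with 7 false calls. In the same order DESeq2 recovered 29.5%, 20.5%, 18.5% and 54.5%, with 117, 213, 170 and 213 false calls. For limma these were 9%, 0%, 0.5% and 33.5%, with 0, 0, 0 and 5 false calls. Named genes were the 5 members, the 3 most correlated with each, and up to 3 called genes per direction and list with the smallest p, with paralogs added after values were seen. Alternatives were DESeq2 1.42.0, limma 3.58.1, other filters, scaling, samples and pools, and each embryo left out. Shares used scipy 1.17.1 (Python 3.11.15), and plots matplotlib 3.10.9.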

Additional observations from a re-analysis of the deposited data

Results flagged for a closer look

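Of 28 groups of 4 to 10 embryos, 2 had an embryo far from the others, and chance flags about 1 in 20 such groups. ETNPPL in Sph EPI was highest in embryo C, at 0.13 on the log2(CPM + 1) scale, which rests on 3 counts, while the other embryos were at 0. SLC28A3 in TE was lowest in the cell E6-ER2, at 0, with 9 other embryos at 325 CPM or more, and this cell also had no count for GATA2, GATA3, DAB2 or KRT8.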

How the results depend on the processing

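No paired analysis was possible because no embryo gave cells to both sides of a tested comparison and the replicate numbers only name samples. Counts of called genes moved most. TE against LB HYPO gave 110 genes higher in TE and 394 higher in LB HYPO, against totals of 858 with DESeq2 (387 and 471), 230 with filterByExpr, 318 with sums of at least 2 cells, 1256 with all 7 cell types in one model, 253 and 89 in the first and last 4 pools, and 222 to 520 with an embryo left out. LB HYPO against Sph HYPO gave 24, 7 higher in LB HYPO and 17 higher in Sph HYPO, against 341 with DESeq2 (189 and 152), 9 with limma, 47 and 41 in the pools, and 17 to 140 with an embryo left out, the highest without Sph HYPO embryo F. TE against Sph HYPO gave 307 (61 higher in TE), against 668 with DESeq2 (399 higher in TE), 633 with limma, 1107 with all cell types, 171 and 146 in the pools, and 195 to 351 with an embryo left out. M and ICM against EPI gave 3210, against 2010 and 2100 in the pools and 2597 to 3264 with an embryo left out.

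In the last 4 pools the calls of XPNPEP2 (5.002), SLC28A3 (5.28) and GPD1L (3.26) in TE against LB HYPO were lost, on the log2 scale. BAD (3.28) was lost there (4.27), in the first 4 pools (2.94), with no filter (3.28), with sums of at least 2 cells (2.94) and without the cells of less certain embryo (2.98). With an embryo left out, SLC28A3 ran from 6.18 to 6.90 and was lost without LB HYPO embryo AN or AO, and BAD from 2.98 to 3.45, lost in 14 of 15. ETNPPL was gained there with all cell types (4.47), and against Sph HYPO with DESeq2, sums of at least 2 cells, all cell types and the last 4 pools, and without TE embryo AA or AF, but its fitted folds rest on a group without counts. They were 11.34, 12.67, 12.94 and 12.42, and 11.92 to 12.40 with an embryo left out. BAD against Sph HYPO was gained with DESeq2 (4.66), limma (4.85) and all cell types (4.74). GPD1L between the HYPO groups turned sign with DESeq2 (-0.031), in the last 4 pools (-0.13) and without LB HYPO embryo AO (-0.044) or Sph HYPO embryo C (-0.12) or F (-0.29), and ran from -0.29 to 1.09 with an embryo left out. The causes were not tested.

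Shares above TPM 1 rose to 100% in the first 4 pools for XPNPEP2 in TE and SLC28A3 in Sph HYPO, and SLC28A3 in LB EPI was 24% above TPM 0. On mean log2(TPM + 1) the difference of M and ICM from EPI was 5.95 for XPNPEP2, 7.57 for SLC28A3 and 5.67 for BAD, and r was 0.908 and 0.899 for ACSL6 with XPNPEP2 and GPD1L, 0.811 for ESRRG and 0.817 for SPIC.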

Other observations

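A single morula cell could not be assigned to an embryo and entered no sum. Its TPM was 40.7 for XPNPEP2, 660 for ETNPPL, 848 for SLC28A3, 3374 for GPD1L and 975 for BAD, each within the range of the other M cells.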
